A study of Bos taurus with 32 samples.

Results

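The adrenal-enriched genes are 69 of 27607 Ensembl gene IDs counted in 4 tissues of young bulls. They were chosen by level: a mean of at least 2 CPM (a gene's count scaled to a common library total) over the 8 adrenals, and at least 8 times the mean in each of the other 3 tissues after 0.5 CPM was added to every mean. The choice used all 32 libraries and both embryo origins together, so the tissue difference describes how the genes were picked and was not tested. Embryo origin was not used and is tested here.

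The animals were 8 male Holstein calves raised under like conditions, from embryos transferred to synchronized recipients. Embryos of 4 calves were produced in vitro (IVP, calves 3208, 3209, 5833 and 5841). Embryos of the 4 control calves (MOET, calves 3213, 3217, 3218 and 5932) came from ovarian superstimulation and artificial insemination. Hypothalamus, pituitary, testicle and adrenal were sampled from each calf at 98 to 104 days of age, except for MOET calf 3213, sampled at 144 days.

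The adrenal gland joins 2 tissues in 1 organ. Its outer cortex makes steroid hormones, chiefly under the pituitary hormone ACTH and angiotensin, and its inner medulla holds chromaffin cells that make catecholamines. The testicle shares much of the steroid-making machinery, the hypothalamus holds neurons that share parts of the catecholamine machinery, and the pituitary secretes ACTH. No source used here gives gene symbols for these Ensembl IDs, so the roles of the members are not given. For the same reason the tissue label could not be checked against cortex or medulla markers. Members are called by the rank of their mean adrenal CPM, from rank 1 to rank 69. CPM is not per gene length, so the rank orders read abundance and not transcript number.

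Adrenal libraries held 17357283 to 19483453 counts, and the 32 libraries together ranged up to 23380330. Adrenal levels below are CPM over totals scaled with edgeR's TMM factors, which were 0.895 to 0.972 in the IVP adrenals and 1.02 to 1.10 in the MOET adrenals. Without these factors the median log2 fold change of all genes between origins moved from 0.00 to -0.19, and that of the members from 0.02 to -0.17. Adrenals 3209 and 5833, both IVP, stood apart from the other 6 in the members, as described below. Calls by origin are given with and without them, while other summaries hold all adrenals unless stated. In bulk RNA, fewer cells of a type and less RNA per cell cannot be told apart.

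Over column totals, the members' mean adrenal level ran from 4.13 to 2635 CPM with a median of 32.8. There were 18 members at or above 100 CPM and 12 below 10 CPM. Counts were concentrated in few genes: the 10 highest-ranked members held 67.5% to 86.8% of all member counts in an adrenal. Together the members took 0.695% of all counts in IVP 5833 and 2.01% in IVP 3209, with 0.899% to 1.33% in the other 6 adrenals. The high share in IVP 3209 was carried by ranks 1 and 3, which took 1.32% of its counts. Without these 2 members the share was 0.691% in IVP 3209, 0.695% in IVP 5833 and 0.782% to 0.877% in the other 6. In the testicle the members' share was 0.0349% to 0.0463%, in the hypothalamus 0.0109% to 0.0147% and in the pituitary 0.00848% to 0.0141%.

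Outside the adrenal, the tissue with the next highest mean was the testicle for 42 members, the hypothalamus for 20 and the pituitary for 7. The member of rank 2 had the highest mean outside the adrenal, 223.3 CPM in the testicle against 1936 CPM in the adrenal. In the hypothalamus the highest member mean was 31.99 CPM, and in the pituitary 19.7 CPM. Mean levels under 0.1 CPM were found for 10 members in the testicle, 25 in the hypothalamus and 33 in the pituitary, and for 6 members in all 3. The adrenal-to-next-tissue ratio of the 3 members just inside the threshold was 8.19, 8.20 and 8.22, and that of the 3 genes just outside it was 7.74, 7.80 and 7.97.

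**Figure D1:**
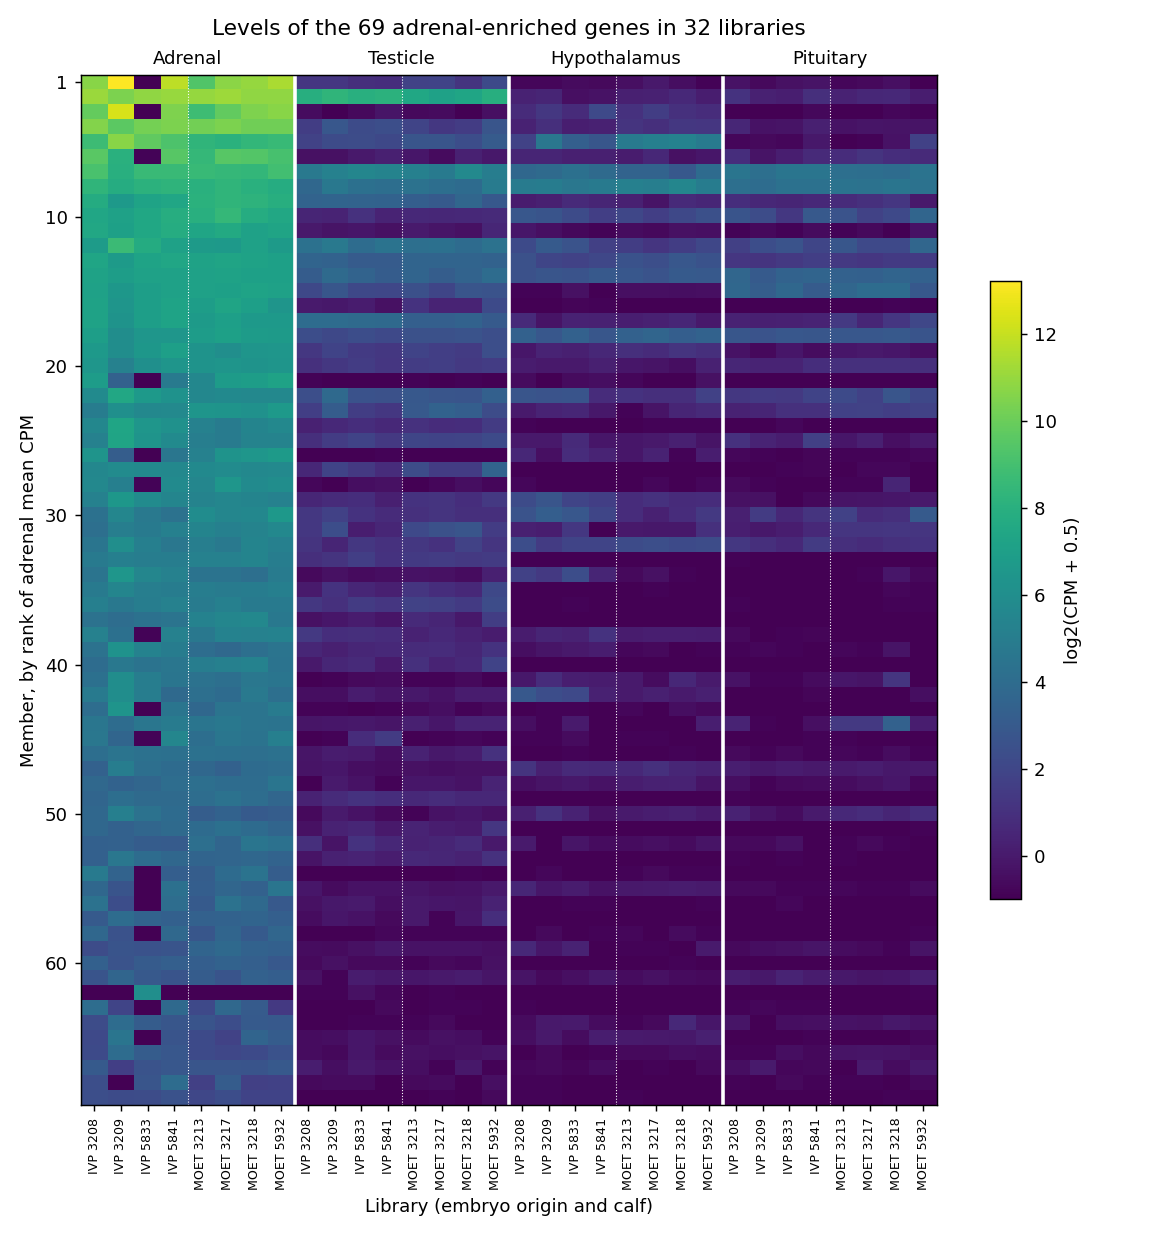
Heat map of log2(CPM + 0.5), over TMM-scaled totals, for the 69 members (vertical axis, by rank of adrenal mean CPM) in 32 libraries (horizontal axis, by tissue, origin and calf, with a dotted line between IVP and MOET). The adrenal block is bright for nearly all members, apart from 15 dark cells in IVP 5833 and the row of rank 62, which is bright in IVP 5833 alone.

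Adrenal IVP 5833 had 15 members at 0 or 1 counts, 11 of them at 0 and 4 at 1 count. They spanned the range of CPM, at ranks 1, 3, 6, 21, 26, 28, 38, 43, 45, 54, 55, 56, 58, 63 and 65. The rank 1 member had 0 counts there and 12251 to 152610 counts in the other 7 adrenals, or 661 to 9545 CPM. Against a floor of 3 counts, equal to 0.166 CPM, its level in IVP 5833 was at least 3993-fold lower than in the lowest of the other adrenals. The rank 3 member had 0 counts against 8141 to 83101, at least 2653-fold lower on the same floor, and the rank 6 member had 1 count against 4110 to 14470. These 3 genes were thus near 0 in a single adrenal and among the members of highest CPM in each of the others.

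Most of the remaining members were near their level in the other adrenals. For 53 members the level in IVP 5833 was 0.548 to 2.22 times the median of the other 7 adrenals, with a median ratio of 1.04, and 39 of the 53 lay between 0.67 and 1.5 times. The 15 near-0 members were separated from them by a gap, with no member between 1% and 20% of that median. The rank 62 member had the opposite pattern. It had 1182 counts in adrenal IVP 5833, or 65.2 CPM, 0 counts in the other 7 adrenals and at most 6 counts in any of the 24 libraries of other tissues. It passed the rule through this 1 library alone.

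The same split was present in the whole count table of that adrenal. In IVP 5833, 42 genes had 0 counts while each of the other 7 adrenals had at least 50, and 51 genes had 0 to 2 counts by the same measure, of which 14 were members. Beside this, 10012 genes had at least 100 counts in each of the other 7 adrenals. Of these, 30 were under 1% of the median of those 7 in IVP 5833. There were also 12 genes with at least 50 counts in IVP 5833 and 0 in the other 7 adrenals, 1 of them a member. Each of the other 31 libraries, set against the 7 others of its tissue, had at most 1 gene at 0, at most 3 genes at 0 to 2 and at most 1 gene read alone. Most of the 15 near-0 members are low outside the adrenal in every calf, so the other tissues of calf 5833 could show little. Of 45 counts to compare there, 11 (of 7 members) had at least 3 counts in each of the other 7 calves, and all 11 lay within the range of those calves. These counts were not scaled for depth. Among the counts of these members below that bound, rank 65 had 9 in the testicle of calf 5833, against 1 to 6. Rank 56 had 2 in its pituitary, against 0. The other 8 members did not meet that bound in any tissue. Among them, rank 26 had 31 counts in the hypothalamus of calf 5833, above the 1 to 23 of the other calves. It had 0 in the pituitary, against 1 to 2. Rank 45 had 4 counts in the hypothalamus, against 0 to 1, and 28 in the testicle, within 0 to 51. Rank 43 had 0 in the testicle, against 1 to 5. For the rest of these 8, counts outside the adrenal were too low to tell whether calf 5833 was low. The cause was not tested.

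Adrenal IVP 3209 differed in another way, with members spread above and below the other adrenals. Against the median of the 6 adrenals other than 3209 and 5833, 22 of 68 members were over 1.5 times as high and 25 were under 0.67 times, which is 32.4% and 36.8%. Of the 13129 genes with an adrenal mean of at least 2 CPM, 19.7% and 22.1% passed these bounds. IVP 3209 was itself part of the adrenal mean in the rule, so genes high there passed more easily. With calf 3209 left out the rule gave 65 members, 64 of them among the 69. The difference from all genes was not tested. The rank 1 member was the furthest above, at 5.16 times the median, and IVP 3209 was the highest adrenal for 25 members and the lowest for 21. The rank 68 member had 0 counts in IVP 3209 alone.

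Several members that were near 0 in IVP 5833 were also low in IVP 3209. Of those 15, 10 were under 0.67 times the median of the 6 adrenals, 4 were over 1.5 times and 1 lay between. The rank 21 member had 10.1 CPM in IVP 3209 and the rank 26 member 8.63 CPM, the lowest values outside IVP 5833, against highest values of 146.2 and 106.2 CPM, both in MOET 5932. Their counts moved together, with a ratio of 1.15 to 1.40 in the 7 adrenals where they were read. This ratio is a description over 7 libraries, and reads shared between near-identical or overlapping genes could not be told apart in these libraries, which keep no strand.

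**Figure D2:**
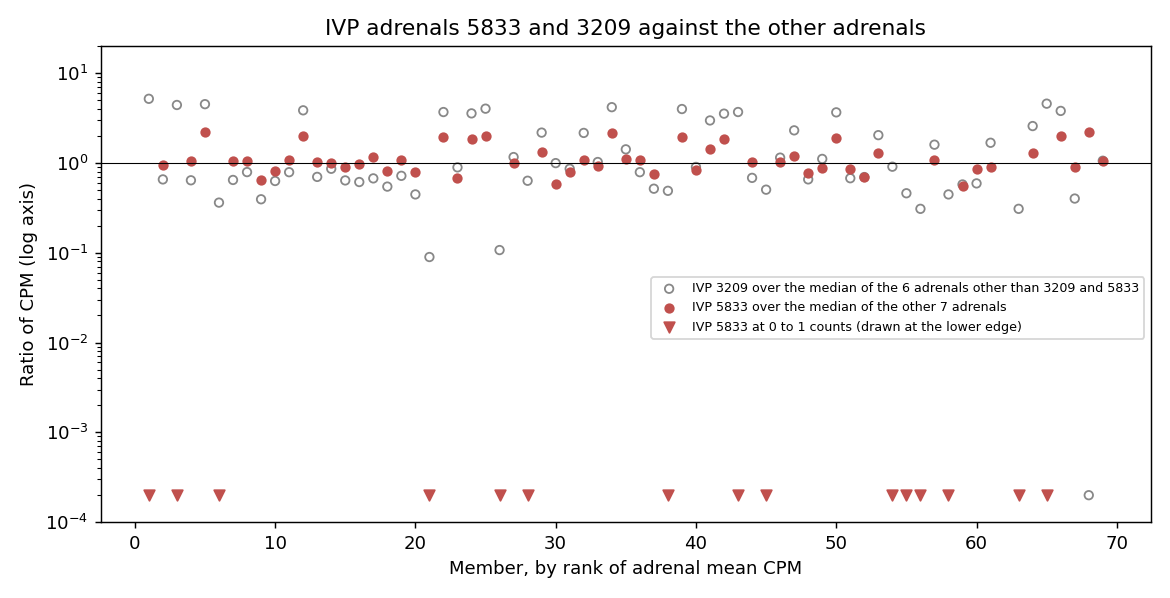
Ratio of CPM in adrenal IVP 5833 to the median of the other 7 adrenals (filled) and in IVP 3209 to the median of the 6 adrenals other than 3209 and 5833 (open), on a log axis, against member rank. Triangles and the open circle of rank 68 at the lower edge stand for 0 or 1 counts, and rank 62, at 0 in all adrenals except 5833, is not drawn. The filled points lie between 0.548 and 2.22 and the triangles below a wide gap.

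Spread between calves was larger in the IVP adrenals. Over the 53 members, the median SD of log2(CPM + 0.5) was 0.43 in IVP and 0.21 in MOET, with n = 4 each, and 44 of the 53 (83.0%) had the larger SD in IVP. Over all 13129 genes at 2 CPM or more, these medians were 0.20 and 0.09, and 80.7% had the larger SD in IVP. The larger spread in IVP was therefore found in members and in all genes alike.

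The first comparison the design implies is IVP against MOET in the adrenal. With p-values of edgeR's quasi-likelihood F test, adjusted by Benjamini-Hochberg over 15437 genes and called at 0.05, 15 of the 68 members tested were called, 7 higher and 8 lower in IVP. The 69th, rank 62, did not pass the filter on low counts. That is 22.1% of members called, while 39.3% of all genes tested were called. For higher calls the shares were 10.3% of members and 20.8% of all genes, and for lower calls 11.8% and 18.5%. The members' shares were below those of all genes, a difference that was not tested. The median log2 fold change of the members was 0.02, with 36 of 68 above 0, beside 0.00 over all genes. The origins did not overlap for 9 members (13.2%), beside 39.3% of all genes tested.

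At an unadjusted p under 0.05 there were 20 members (29.4%), beside 50.9% of all genes. The counts of calls depended on single libraries. Without IVP 5833, 2 members were called higher (2.94%) and 4 lower (5.88%), beside 9.15% and 6.95% of all genes. Without IVP 3209, 7 were called in each direction (10.3%), beside 20.9% and 19.8%. With both left out, so 2 IVP against 4 MOET adrenals, 5 were called higher (7.35%) and 6 lower (8.82%), beside 9.91% and 8.89%. Without IVP 3208, 12 were called higher and 10 lower, beside 27.2% and 25.3% of all genes. Leaving out IVP 5841 gave 7 and 5, beside 14.8% and 10.7%. Among the MOET adrenals, leaving out 3213 gave 2 and 5 (beside 11.2% and 9.56% of all genes) and leaving out 3217 gave 3 and 6 (beside 17.1% and 15.5%). Leaving out MOET 3218 gave 0 and 4 by edgeR (beside 8.1% and 7.46%), and leaving out MOET 5932 gave 3 and 5 (beside 11.1% and 8.75%). With age as a covariate 2 members were called higher and 4 lower, beside 9.7% and 9.11%. The calls of all genes thus moved with these libraries too. Over column totals without TMM factors the split was 5 higher and 14 lower, beside 1449 and 5015 of all genes in place of 3205 and 2863.

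The 7 members called higher in IVP adrenals were ranks 5, 22, 24, 25, 34, 39 and 50. Their log2 fold changes ran from 1.10 to 1.43, with SEs of 0.29 to 0.39 and adjusted p from 0.0156 to 0.0428 (edgeR). All 7 had their highest value in IVP 3209, where each was over 1.5 times the median of the 6 adrenals, and for 3 of them the origins did not overlap. In IVP 5833 the 7 members were at 1.86 to 2.22 times the median of the other 7 adrenals. Without IVP 3209 their log2 fold changes were 0.67 to 0.95 and 5 of the 7 were still called, without IVP 5833 they were 1.11 to 1.44 and 2 were still called, and without both 3 were.

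The highest CPM among them was that of rank 5, ENSBTAG00000026768. Its IVP adrenals had 431.0, 1639, 860.4 and 604.0 CPM in calves 3208, 3209, 5833 and 5841, and its MOET adrenals had 310.7, 273.4, 340.7 and 388.1 CPM in calves 3213, 3217, 3218 and 5932. Every IVP adrenal was above every MOET adrenal, and IVP 3209 was the highest. IVP adrenals averaged 883.5 ± 533.4 CPM and MOET adrenals 328.2 ± 48.5 CPM (SD, n = 4), which gave 1.43 as the log2 fold change (SE 0.37, edgeR adjusted p = 0.0187). Over its 17 alternatives the adjusted p ran from 8.87e-07 (limma voom with sample quality weights) to 0.0562 (edgeR without MOET 3218, which ended the call). That voom fit called 6658 of all 15437 genes higher and 6489 lower. The next smallest adjusted p was 0.00355, by edgeR without IVP 3208.

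The smallest p among the higher calls was that of rank 50, ENSBTAG00000012684. It had 13.1, 35.1, 20.03 and 15.4 CPM in IVP calves 3208, 3209, 5833 and 5841, and 8.58, 10.7, 7.77 and 8.48 CPM in MOET calves 3213, 3217, 3218 and 5932. The groups did not overlap, and its order of IVP calves, with 3209 highest and 5833 next, was the same as for rank 5. The log2 fold change was 1.23 (SE 0.29, edgeR adjusted p = 0.0156). Its alternatives gave adjusted p from 7.32e-07 (the same limma voom fit) to 0.0530 (edgeR without MOET 3218, which ended the call).

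All 7 members called higher shared 1 order of the IVP adrenals, with 3209 highest, then 5833, then 5841, and 3208 lowest. Of the 53 members not set apart in IVP 5833, 21 (39.6%) had this order and 10 (18.9%) had the opposite one. Among the 13129 genes at 2 CPM or more the shares were 25.9% and 21.2%. Of the 8 members called lower, 1 had this order and 1 the opposite. The order is a description of 4 libraries and was not tested.

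The 8 members called lower in IVP adrenals were ranks 9, 23, 30, 37, 40, 48, 52 and 59. Their log2 fold changes ran from -1.14 to -0.47, with SEs of 0.15 to 0.33 and adjusted p from 0.00840 to 0.0496 (edgeR). The lowest adrenal was an IVP one for all 8, the origins did not overlap for 5, and IVP 3209 was under 0.67 times the median of the 6 adrenals for 4. Without IVP 3209 their log2 fold changes, all below 0, were 0.38 to 1.48 in size and 7 of the 8 were still called. Without IVP 5833 the size was 0.44 to 1.12, near that with all 8 adrenals, and 4 were still called. Without both, 6 were.

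The smallest p of all members was that of rank 59, ENSBTAG00000015129. Its IVP adrenals had 4.47, 5.94, 5.46 and 6.06 CPM in calves 3208, 3209, 5833 and 5841, and its MOET adrenals had 11.7, 14.1, 10.7 and 9.97 CPM in calves 3213, 3217, 3218 and 5932. All 4 IVP values lay close together and below the lowest MOET value. The log2 fold change was -1.08 (SE 0.15, edgeR adjusted p = 0.00840). Its alternatives gave adjusted p from 3.54e-08 (DESeq2 Wald test) to 0.0662 (edgeR with all 32 libraries in 1 fit, which ended the call). That fit had no term for calf.

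Next came rank 37, ENSBTAG00000024341, with 20.3, 16.8, 19.2 and 21.4 CPM in IVP calves 3208, 3209, 5833 and 5841. Its MOET adrenals had 39.8, 45.4, 49.6 and 25.3 CPM in calves 3213, 3217, 3218 and 5932. The groups did not overlap, with MOET 5932 nearest to the IVP values. The log2 fold change was -1.04 (SE 0.19, edgeR adjusted p = 0.0105), and it alone of the 15 called members was called under all 17 alternatives.

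Rank 9 had the highest CPM of the members called lower. It had 211.1, 101.2, 154.6 and 169.5 CPM in IVP calves 3208, 3209, 5833 and 5841, and 275.3, 315.3, 287.4 and 239.6 CPM in MOET calves 3213, 3217, 3218 and 5932. The groups did not overlap, and IVP 3209 was the lowest. Its log2 fold change was -0.81 (SE 0.20, edgeR adjusted p = 0.0160). The alternatives for rank 9 gave adjusted p from 6.60e-07 (limma voom with sample quality weights) to 0.0505 (edgeR without MOET 3218, which ended the call). Rank 52 averaged 9.09 ± 1.18 CPM over the IVP adrenals and 17.8 ± 4.38 CPM over the MOET adrenals (SD, n = 4), also without overlap. Its log2 fold change was -0.97 (SE 0.19, edgeR adjusted p = 0.0113). The alternatives for rank 52 gave adjusted p from 3.68e-06 (the same voom fit) to 0.0552 (edgeR with all 32 libraries in 1 fit, which ended the call).

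**Figure D3:**
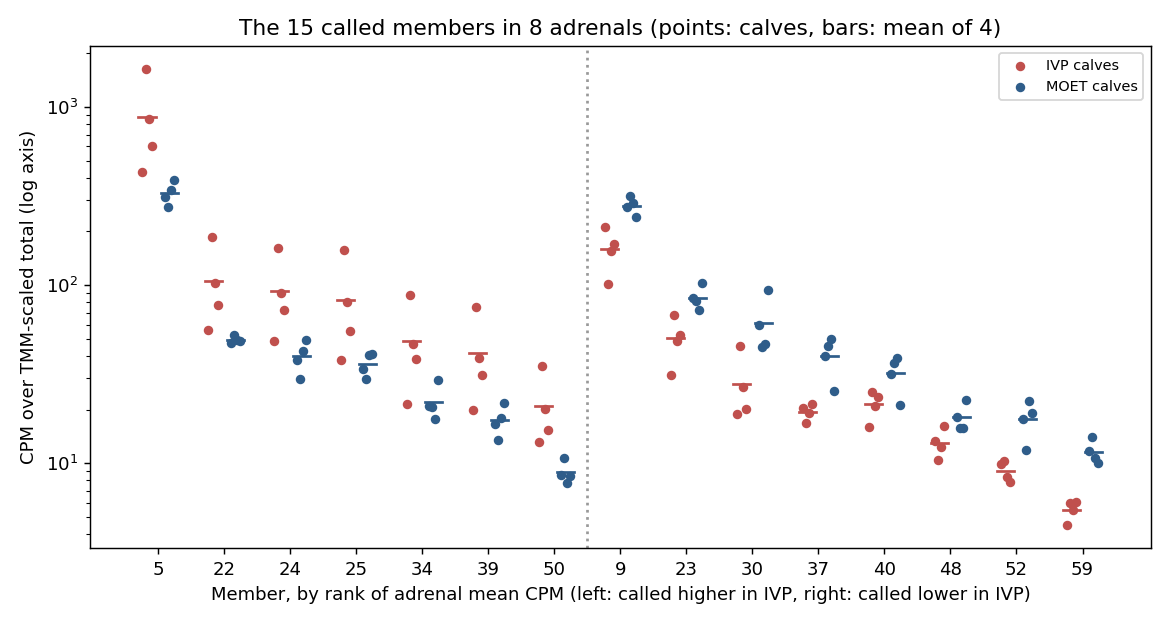
CPM over TMM-scaled totals (log axis) of the 15 members called in the adrenal, with 1 point per calf and a bar at the mean of 4, for IVP (red) and MOET (blue). The 7 members on the left were called higher in IVP and the 8 on the right lower. The uppermost red point of each member on the left is IVP 3209.

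Among the 53 members tested and not called, 38 were not near 0 in IVP 5833. Of these, 32 had an absolute log2 fold change under 0.5, the median was 0.18 with a median SE of 0.20, and the largest was 0.995. Members of high CPM were among them. The rank 2 member averaged 1866 ± 371.4 CPM over the IVP adrenals and 1989 ± 185.2 CPM over the MOET adrenals (SD, n = 4), and its log2 fold change was -0.09 (SE 0.15, edgeR adjusted p = 0.638). The rank 4 member had 1222 ± 299.8 and 1194 ± 112.5 CPM, with 0.03 as its log2 fold change (SE 0.18, edgeR adjusted p = 0.890). For both, the difference was smaller than its SE.

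The 15 members near 0 in IVP 5833 had SEs of 0.81 to 1.45, and edgeR called none with all 8 adrenals. Limma voom with sample quality weights called all 15, in a fit that called 6658 of all 15437 genes higher and 6489 lower. That fit gave IVP 5833 a weight of 8.79 and the other IVP adrenals 0.123 to 0.604. Without IVP 3208, edgeR called 2 of the 15, beside 27.2% of all genes called higher and 25.3% lower. The rank 1 member had 1669, 9545, 0 and 3521 CPM in IVP calves 3208, 3209, 5833 and 5841, and 661.0, 1706, 1993 and 2761 CPM in MOET calves 3213, 3217, 3218 and 5932. Both the highest and the lowest adrenal were IVP. The rank 3 member had 934.2, 5197, 0 and 1432 CPM in the same IVP order, and 439.2, 877.3, 1426 and 1685 CPM in the same MOET order, again with both extremes in IVP. With IVP 5833 left out, the 15 members had SEs of 0.24 to 0.73, log2 fold changes from -1.05 to 1.47 and a smallest adjusted p of 0.110 (edgeR). Leaving out that library changed the sign for 5 of the 15 (ranks 6, 45, 54, 56 and 58), to log2 fold changes of 0.023 to 0.25, each smaller than its SE. The other 10 kept their direction, 5 above 0 and 5 below.

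**Figure D4:**
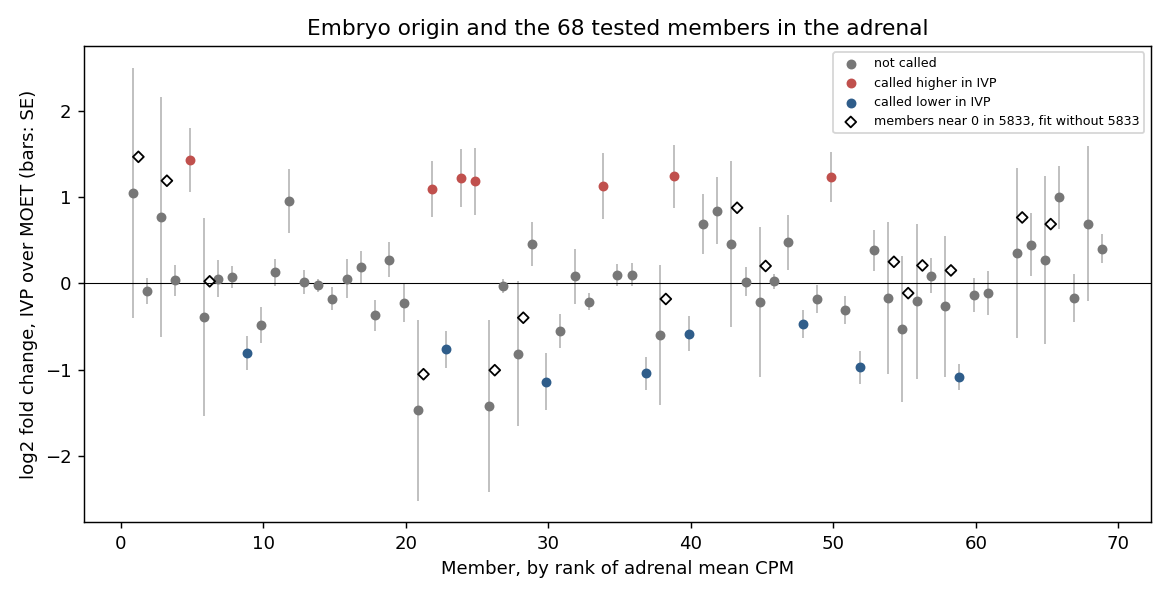
log2 fold change of IVP over MOET in the adrenal (points) with its SE (bars) for the 68 members tested, against member rank, with the 15 near-0 members also shown from the fit without IVP 5833 (diamonds). The widest bars, 0.81 to 1.45, belong to the near-0 members, and 15 members are coloured as called.

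The same members were tested by origin in the other tissues, where most were low. In the hypothalamus 33 passed the filter and 0 were called by edgeR, beside 0.056% of all genes. At an unadjusted p under 0.05 there were 12 (36.4%), beside 24% of all genes, and DESeq2 called 5 of the 22 to which it gave an adjusted p (22.7%), beside 8.1%. The edgeR count was 1 without IVP 3209 (beside 0.271% of all genes) and 1 without IVP 5841 (beside 0.154%). These differences from all genes were not tested. The members' median log2 fold change was 0.22, with 22 of 33 above 0, beside 0.03 over all genes. In the testicle 39 passed and 0 were called by edgeR, beside 0.00612% of all genes. At an unadjusted p under 0.05 there were 14 (35.9%), beside 9.04% of all genes, and DESeq2 called 2 of 38 (5.26%), beside 1.8%. Their median was -0.41, with 11 of 39 above 0, beside 0.03 over all genes. Spread in the MOET testicles was uneven between members. Rank 27 averaged 5.04 ± 4.06 CPM there, from 2.38 to 10.9 CPM, and rank 5 averaged 6.28 ± 1.33 CPM (SD, n = 4). Medians outside the adrenal were not taken with single libraries left out.

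In the pituitary 23 members passed and 4 were called, all lower in IVP (17.4%, beside 15.3% of all genes called). The count was 2 without IVP 3209 (beside 8.24% of all genes) and 2 without MOET 3213 (beside 2.37%). At an unadjusted p under 0.05 there were 9 (39.1%), beside 33.9%, and DESeq2 called 7 of 21 (33.3%), beside 19%. The edgeR calls were rank 17 with a log2 fold change of -1.44 (SE 0.35), rank 23 with -1.30 (SE 0.22), rank 31 with -1.37 (SE 0.25) and rank 50 with -1.24 (SE 0.35). Their levels were low, with IVP means of 0.471 to 1.16 CPM and MOET means of 1.12 to 2.86 CPM. Rank 23 was called lower in both the adrenal and the pituitary, and rank 50 was called higher in the adrenal and lower in the pituitary. The members' median in the pituitary was -0.27, with 7 of 23 above 0, beside 0.00 over all genes.

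Outside the adrenal, origins did not overlap for 7 members in the hypothalamus (21.2%, beside 9.99% of all genes), 6 in the pituitary (26.1%, beside 22.5%) and 7 in the testicle (17.9%, beside 7.29%). Among these the uncalled ones were 4 higher and 3 lower in IVP in the hypothalamus, 2 lower in the pituitary, and 3 higher and 4 lower in the testicle. Uncalled log2 fold changes of both signs were large, mostly for members at low CPM. In the hypothalamus, rank 34 had 0.909 to 4.73 CPM in the IVP hypothalami and 0 to 0.291 CPM in the MOET ones, with 4.37 as its log2 fold change (SE 0.75, edgeR adjusted p = 0.122), and it was called higher in the adrenal. Rank 30 there had 3.41 to 8.85 and 0.728 to 2.08 CPM, and its fitted log2 difference was 2.20 (SE 0.38, edgeR adjusted p = 0.122), while in the adrenal it was called lower at -1.14. In the testicle, rank 2 had 238.6 to 319.6 CPM in IVP and 138.4 to 236.8 CPM in MOET, and its fitted log2 difference was 0.60 (SE 0.17, edgeR adjusted p = 0.338). Rank 16 in the testicle went the other way, with 0.269 to 0.575 CPM in IVP and 0.811 to 4.11 CPM in MOET. Its MOET testicles averaged 1.84 ± 1.56 CPM (SD, n = 4). The fitted log2 difference of rank 16 was -2.01 (SE 0.59, edgeR adjusted p = 0.343). The groups did not overlap in these 4 cases, and none passed the adjustment. In the pituitary, rank 44 had 0 to 0.852 CPM in IVP and 0.602 to 10.2 CPM in MOET, which overlap. Its fitted log2 difference was -3.66 (SE 1.12, edgeR adjusted p = 0.0613). The MOET pituitaries averaged 3.72 ± 4.35 CPM, an SD above the mean.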

How the data were processed

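RNA of 4 tissues from 8 calves was sequenced as 32 poly(A)-selected libraries that keep no strand, paired-end, per the labels' protocols, which name SOAPnuke for read filtering. STAR 2.7, HTSeq and the bosTau9 build are named in the submitters' processing notes, with no annotation release or counting mode stated there. The authors deposited raw counts per Ensembl gene ID. Every one of the 27607 entries has a gene ID, and every column is 1 of the 32 libraries.

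Members and lists were chosen with earlier results of these data known. The rule used CPM over column totals. Each tissue was tested alone with edgeR's quasi-likelihood F test (robust glmQLFit, TMM factors) on genes passing filterByExpr at a minimum count of 10 and a total of 15, and p-values were adjusted by Benjamini-Hochberg over all genes tested, called at 0.05. The SE is the log2 fold change over the root of F. On simulated adrenal counts of 15226 genes, the test found 72 of 100 genes given a 2-fold change and 87 of 100 given a 4-fold one, with 9 false calls. The simulation drew genes independently, with the same spread in both origins and no library set apart. The real adrenals differ in this, so it does not give the rate of false calls in them. Named genes were to be chosen by role, abundance and smallest p where symbols were known. The reference table of 37063 genes pairs 0 of them with an Ensembl ID, so at most 2 IDs per direction with the smallest p are named, the others go by rank, and gene lists, cell type markers and promoters were not analysed here. The other members given values were singled out after their values were seen.

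Counts of a pair of replicates differed beyond sampling noise in all 48 pairs (chi-square per degree of freedom 5.12 to 189.4), so each library counts as 1 replicate. Each is 1 calf. A floor is 3 counts and covers counting error only. Tests ran in edgeR 4.0.16, DESeq2 1.42.0 and limma 3.58.1 under R 4.3.3, and tables and plots were made with pandas 2.3.3 and matplotlib 3.10.9 under Python 3.11.15.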

Additional observations from a re-analysis of the deposited data

Results flagged for a closer look

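Levels of the members described were checked in the 4 adrenals of each origin, and the members' share of counts in the 4 libraries of each tissue and origin. In 3 of these 86 groups 1 library lay far from the other 3. The rank 62 member had 65.2 CPM in adrenal IVP 5833 and 0 in the other IVP adrenals, which the choice of members fixed, since it was chosen through that library alone. Without this member the number was 2 of 84 groups, and chance gives about 1 in 20. The rank 38 member had 25.6 CPM in adrenal MOET 3213, sampled at the greatest age, and 37.8 to 39.5 CPM in the other MOET adrenals. The rank 68 member had 8.34 CPM in adrenal MOET 3217 and 2.698 to 2.89 CPM in the other MOET adrenals.

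For 2 members the IVP and MOET calves did not overlap in the adrenal and did not overlap, in the opposite direction, in another tissue. How many of all genes did so was not counted. Taken 1 tissue at a time, the origins did not overlap for 39.3% of all genes in the adrenal. The shares were 9.99% in the hypothalamus, 22.5% in the pituitary and 7.29% in the testicle. Rank 5 had a log2 fold change of 1.43 in the adrenal, -1.60 in the hypothalamus (3.02 to 23.9 CPM in IVP and 27.8 to 38.7 CPM in MOET) and -0.70 in the testicle (2.98 to 4.47 CPM in IVP and 4.63 to 7.89 CPM in MOET). Of these the adrenal difference alone was called, with edgeR adjusted p of 0.163 in the hypothalamus and 0.338 in the testicle. Rank 50 had a log2 fold change of 1.23 in the adrenal and -1.24 in the pituitary, both called, with 0.187 to 0.807 CPM in IVP and 0.896 to 1.29 CPM in MOET pituitaries. The difference between tissues was not tested for either member.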

How the results depend on the processing

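No paired analysis was possible because the IVP and MOET groups share no calf and fewer than 2 numbers. The 15 called members kept their direction in all 255 of their alternatives, were called in 174 and lost the call in 81. With limma voom and sample quality weights, 22 members were called higher and 32 lower, beside 6658 and 6489 of all genes; that fit gave MOET 3213 a weight of 26.6 and IVP 5833 one of 8.79, and the log2 fold changes of ranks 1 and 3 became -13.13 and -12.64. Age as a covariate gave 2 and 4 members, beside 1498 and 1407 of all genes. All 32 libraries in 1 fit gave 3 members called lower, beside 2218 of all genes (18242 tested). That fit had no term for calf, although its libraries of different tissues come from the same calves. Among alternatives added after the data were seen, column totals gave 14 members called lower, beside 1449 higher and 5015 lower of all genes, and leaving out IVP 3209 and 5833 together gave 1575 and 1413 of all genes and 0.38 for rank 6. Leaving out 1 calf gave 0 to 12 members higher, 4 to 10 lower, 1262 to 4270 of all genes higher and 1088 to 3964 lower. In these fits rank 1 ran from -0.039 (without IVP 3209) to 1.47, rank 3 from -0.49 (without IVP 3209) to 1.19, and rank 6 from -0.80 to 0.023 (without IVP 5833). DESeq2 called 5 members in the hypothalamus, 7 in the pituitary and 2 in the testicle, beside 8.1%, 19% and 1.8% of all genes, and leaving out 1 calf gave 0 to 1 and 2 to 5 in the first 2. A fold of 4 in the rule gave 180 members and a fold of 16 gave 29. The cause was not tested for any of these. With 4 calves per origin and 1 older MOET calf, precision for members with high counts is set by the number of calves, not by depth. Outside the adrenal, where most members were low, counting error can add to it.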
